A study of Mus musculus with 13 samples.

Results

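The genes described here are 34 marker genes of macrophages, monocytes, and resident phagocytes, taken from a list of symbols and found as 34 of the 40787 genes in the expression table of mouse sciatic nerves. RNA was sequenced from 13 nerves at 5 days post crush (dpc), with 1 library per sample. Controls carried floxed Rptor alleles without Cre, and RaptorKOs carried the same alleles with Plp1CreERT2, a tamoxifen-inducible recombinase driven in Schwann cells (SCs). Rptor encodes Raptor, a subunit of the kinase complex mTORC1. All mice, controls included, received tamoxifen on 5 days at 2 months of age, and one sciatic nerve was crushed 2 months later. The groups were injured controls (n = 3), injured RaptorKOs (n = 3), contralateral controls (n = 3), and contralateral RaptorKOs (n = 4). The contralateral nerve is the uncrushed nerve of the other side. Recombination was aimed at SCs, so the macrophages of RaptorKO nerves were not themselves the target of the deletion.

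Macrophages are phagocytes of the nerve. A small resident population lives in the intact endoneurium, and after a crush monocytes enter from the blood, become macrophages, and take up axon and myelin debris together with SCs. Colony-stimulating factor 1 signals through the receptor encoded by Csf1r to keep these cells alive, PU.1 (Spi1) sets their gene program, and receptors such as Trem2 and the Fc receptors signal through the adaptors Tyrobp and Fcer1g. Whole nerves without epineurium were used, and of crushed nerves only the part distal to the crush. Each library therefore mixes these cells with SCs, fibroblasts, and vessels. In such bulk samples, a difference in the number of phagocytes and a difference in RNA per phagocyte cannot be told apart.

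Library totals were 8200476 to 13581788 counts, and values are given as CPM, the usual unit of counts relative to library size, here after scaling with TMM factors. Adjusted p is from the quasi-likelihood test of edgeR, Benjamini-Hochberg adjusted over the genes tested in that comparison. A gene was tested when 2 or more libraries of the comparison held at least 50 counts, and called at an adjusted p below 0.05 and a fold change above 1.2. Folds and log2 fold changes are those of the fitted model, with its standard error (SE). Both libraries of control replicate 3 stood apart in sex-linked genes, with 14462 and 15017 counts of Xist, against 4 to 17 in the other 11 libraries. RaptorKO injured 2 stood apart in the phagocyte genes themselves. Rptor was 43.6 to 52.2 CPM in contralateral controls and 22.1 to 27.8 CPM in contralateral RaptorKOs, and 35.0 to 49.5 against 23.3 to 28.8 CPM in injured nerves. Macrophage identity genes were detected in every library. Of the 9 neutrophil genes Ly6g, Elane, and Camp had no count in any library, and Retnlg had 0 counts in every contralateral and 44 to 81 in every injured library.

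In the contralateral nerve the phagocyte genes were low. Divided by exon length, Lyz2, the phagocyte lysozyme, was the most abundant of the 34 in contralateral controls, with 49.3 ± 5.08 CPM per kb (SD, n = 3). The complement genes C1qa (23.9 ± 2.02 CPM per kb) and C1qb (22.5 ± 1.13 CPM per kb) followed, and their ranges of 21.7 to 25.6 and 21.4 to 23.6 overlapped. Lgals3, which encodes galectin-3, had 15.3 ± 1.5 CPM per kb and the lysosomal membrane protein gene Cd68 had 13.5 ± 3.82 CPM per kb, with overlapping ranges too. In contralateral RaptorKOs Lyz2 had 89.5 ± 7.36, C1qa 42.8 ± 4.75, and C1qb 41.1 ± 1.25 CPM per kb (SD, n = 4), so the first 3 kept their order. The sum of all 34 genes was 444, 403, and 433 CPM in the contralateral controls and 724, 629.9, 736, and 794 CPM in the contralateral RaptorKOs. Every RaptorKO library lay above every control library in this sum, which amounted to 0.0374 to 0.0414% of the counts in controls and 0.0608 to 0.0762% in RaptorKOs.

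The first comparison asked whether the phagocyte genes differed between genotypes in the uncrushed nerve. These nerves came from mice crushed on the other side 5 days before. No nerves of uninjured mice were sequenced, so a difference before injury cannot be read from them. In contralateral nerves 14 members were higher in RaptorKOs and 0 were lower, among the 23 that were tested. Of all 11878 genes tested, 4.49% were called higher and 5.68% lower. Trem2, Cd53, Cd14, and Lyve1 reached the count minimum only through the RaptorKO libraries. Of the 19 members that reached it in controls alone, 12 were higher. With no count minimum all 34 entered the test, and 15 were higher and 0 lower, against 2.55% of all genes called higher. The 23 tested members had log2 fold changes of 0.04 to 1.79 with a median of 0.89, against a median of 0.012 for all genes. Of these 23, 18 had every RaptorKO library above every control library, which held for 9.50% of all tested genes. Trem2, Cd53, Cd14, and Lyve1, which were tested only through the RaptorKO libraries, are among these 18 and also count in the median. With 1 library left out, the number called ranged from 10 to 15, and it was 11 without control contralateral 3.

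Of the 7 macrophage identity genes 5 were tested and 2 were higher. Csf1r, the receptor for the survival factors Csf1 and Il34, had 35.8, 25.9, and 26.2 CPM in contralateral controls and 53.1, 49.8, 62.5, and 55.4 CPM in contralateral RaptorKOs. The groups did not overlap, and Csf1r was 1.91-fold higher (log2 fold change 0.94, SE 0.14, edgeR adjusted p = 0.00215). Hmgxb3 overlaps Csf1r on the other strand, and its 229 to 425 counts per library are of the size of the 269 to 662 counts of Csf1r in contralateral nerves. Lyz2 (ENSMUSG00000069516, chromosome 10, 117277331 to 117282321, GRCm38) had 60.9, 61.1, and 72.6 CPM in the controls, and the RaptorKOs had 125, 104, 118, and 124 CPM. It was 1.85-fold higher (log2 fold change 0.89, SE 0.10, edgeR adjusted p = 0.000375). Its near copy Lyz1 had 0 to 27 counts in the contralateral libraries, and RSEM can divide reads between the 2 genes.

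The other 3 tested identity genes were not called, and their intervals include the values of Csf1r and Lyz2. Cd68 had 20.9, 18.3, and 11.6 CPM in the controls, and the RaptorKOs had 20, 17.6, 18, and 42.4 CPM, so the groups overlapped and RaptorKO contralateral 4 alone was high. Its log2 fold change was 0.55 with a 95% confidence interval of -0.18 to 1.27 (edgeR adjusted p = 0.338). Adgre1, which encodes the macrophage antigen F4/80, had 8.96, 7.37, and 4.87 CPM in the controls, and the RaptorKOs had 7.60, 11.7, 11.1, and 9.53 CPM. These groups overlapped as well, with a log2 fold change of 0.52 and an interval of -0.03 to 1.07 (edgeR adjusted p = 0.223). The pore-forming protein gene Mpeg1 was also highest in RaptorKO contralateral 4, at 54.1 CPM against 25 to 28.9 CPM in the other 3 (log2 fold change 0.50, edgeR adjusted p = 0.240). Ms4a7 and Cx3cr1, the fractalkine receptor, were under the count minimum. Cx3cr1 had 1.27, 0.648, and 1.27 CPM in the controls, and the RaptorKOs had 3.59, 3.59, 4.25, and 2.92 CPM. Its groups did not overlap, on counts of 8 to 14 and 23 to 47 per library. With no count minimum its log2 fold change was 1.77 (edgeR adjusted p = 0.0179).

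All 3 genes of C1q, the recognition molecule of the classical complement pathway, were higher. They lie side by side on chromosome 4 between 136880129 and 136898803 of GRCm38. C1qa had 25.4, 22.5, and 26.6 CPM in the controls, and the RaptorKOs had 51.2, 42.1, 45.1, and 39.8 CPM. C1qb had 24.5, 23.3, and 25.7 CPM against 46.1, 43.4, 45.6, and 43.7 CPM. C1qc had 23.4, 25, and 19.7 CPM against 42.7, 33.7, 35.1, and 42.9 CPM. None of the 3 overlapped between genotypes, and within each group the libraries lay close together. The log2 fold changes were 0.87 (SE 0.12), 0.89 (SE 0.096), and 0.78 (SE 0.14), with edgeR adjusted p = 0.00128, 0.00027, and 0.00602.

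Of the 6 receptor and adaptor genes, 4 were tested and 2 were higher. Fcer1g, the signaling chain of activating Fc receptors, had 6.79, 6.40, and 8.08 CPM in the controls, and the RaptorKOs had 14.6, 11.4, 13.7, and 12.4 CPM (log2 fold change 0.90, SE 0.17, edgeR adjusted p = 0.00887). Without control contralateral 2 this call was lost (edgeR adjusted p = 0.0528). Mast cells also express Fcer1g. Trem2 (ENSMUSG00000023992, chromosome 17, 48346401 to 48354147), a receptor for lipids and debris, had 2.81, 3.24, and 1.85 CPM in the controls, and the RaptorKOs had 7.29, 5.95, 5.48, and 6.35 CPM. It was 2.40-fold higher (log2 fold change 1.26, SE 0.28, edgeR adjusted p = 0.0202), and this call was lost without control contralateral 1, control contralateral 3, or RaptorKO contralateral 1 (edgeR adjusted p up to 0.0715). Fcgr3, an Fc receptor for immunoglobulin G, and Tyrobp, the adaptor of Trem2, did not overlap between genotypes either, but with log2 fold changes of 0.54 and 0.61 they were not called (edgeR adjusted p = 0.0886 and 0.0726). The Fc receptor gene Fcgr1 and the glucan receptor gene Clec7a were under the count minimum.

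General leukocyte and myeloid genes were higher in 3 of 4 tested cases. Ptprc, which encodes the leukocyte antigen CD45, had 4.71, 4.94, and 3.60 CPM in the controls, and the RaptorKOs had 10.6, 5.72, 10.9, and 7.75 CPM. The groups were separate but the RaptorKOs spread widely, and the log2 fold change of 1.0 (SE 0.28, edgeR adjusted p = 0.0474) lost its call without any library other than RaptorKO contralateral 2 (edgeR adjusted p up to 0.151). Laptm5, a lysosomal protein gene of blood cells, had 13.4, 14.6, and 15.9 CPM against 26.5, 23.5, 26.7, and 34.9 CPM (log2 fold change 0.95, SE 0.16, edgeR adjusted p = 0.00403). Cybb, the catalytic subunit of the phagocyte oxidase, had 4.71, 6.89, and 6.04 CPM against 12, 9.01, 13.6, and 14.1 CPM (log2 fold change 1.07, SE 0.22, edgeR adjusted p = 0.0143). For both genes each RaptorKO library exceeded each control library, and Cybb lost its call without control contralateral 1 (edgeR adjusted p = 0.0658). The tetraspanin gene Cd53 had a log2 fold change of 1.27 (SE 0.43) and was not called (edgeR adjusted p = 0.0918). Spi1 and Aif1 were under the count minimum.

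Of the 4 genes of uptake and degradation 3 were tested and 1 was higher. Ctss (ENSMUSG00000038642, chromosome 3, 95526786 to 95556403), the lysosomal protease cathepsin S, had 8.96, 11, and 15.2 CPM in the controls, and the RaptorKOs had 32.4, 18.9, 23.9, and 28.8 CPM. It was 2.25-fold higher (log2 fold change 1.17, SE 0.22, edgeR adjusted p = 0.00878), and the call was lost without control contralateral 2 (edgeR adjusted p = 0.0521). Lgals3 had 31.4, 27.9, and 25.9 CPM in the controls, and the RaptorKOs had 25.9, 34.1, 29.8, and 24.9 CPM, and the groups covered the same range. Its log2 fold change was 0.04 with an interval of -0.26 to 0.34. The scavenger receptor gene Msr1 was under the count minimum. Gpnmb, a glycoprotein of lipid-laden phagocytes, had 43.3, 27.1, and 48.6 CPM against 53.6, 45.1, 36.6, and 61.0 CPM, also with overlap (log2 fold change 0.33, interval -0.14 to 0.81).

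All 3 tested genes of resident, perivascular-type macrophages were higher. Cd163, the scavenger receptor for hemoglobin (ENSMUSG00000008845, chromosome 6, 124304656 to 124330527), had 29.7, 27.6, and 26.2 CPM in the controls, and the RaptorKOs had 51.9, 48.8, 71.2, and 66.7 CPM. It was 2.18-fold higher (log2 fold change 1.12, SE 0.15, edgeR adjusted p = 0.00100). Mrc1, the mannose receptor CD206, had 27.4, 21.6, and 20.2 CPM against 33.9, 27.7, 49.4, and 44.8 CPM (log2 fold change 0.78, SE 0.20, edgeR adjusted p = 0.0371). Control contralateral 1 and RaptorKO contralateral 2 nearly touched in Mrc1, and its call was lost without any library other than RaptorKO contralateral 2 (edgeR adjusted p up to 0.142). Lyve1 (ENSMUSG00000030787, chromosome 7, 110850607 to 110863239), the hyaluronan receptor of some resident macrophages and of lymphatic vessels, had 2.62, 3.56, and 3.99 CPM in the controls, and the RaptorKOs had 10.1, 14.3, 15.5, and 6.22 CPM. It had the largest fold among the 23, at 3.47-fold (log2 fold change 1.79, SE 0.32, edgeR adjusted p = 0.00661). Of the 4 other lymphatic endothelial genes, 2 were tested in contralateral nerves and 0 were called, and their summed level was 23.8 to 37.8 CPM in controls and 24.3 to 84.6 CPM in RaptorKOs. The folate receptor gene Folr2 was under the count minimum. The monocyte and activation genes Ly6c2, Arg1, and Chil3 were too, and Cd14, the lipopolysaccharide co-receptor, was not called (log2 fold change 0.82, edgeR adjusted p = 0.148).

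**Figure D1:**
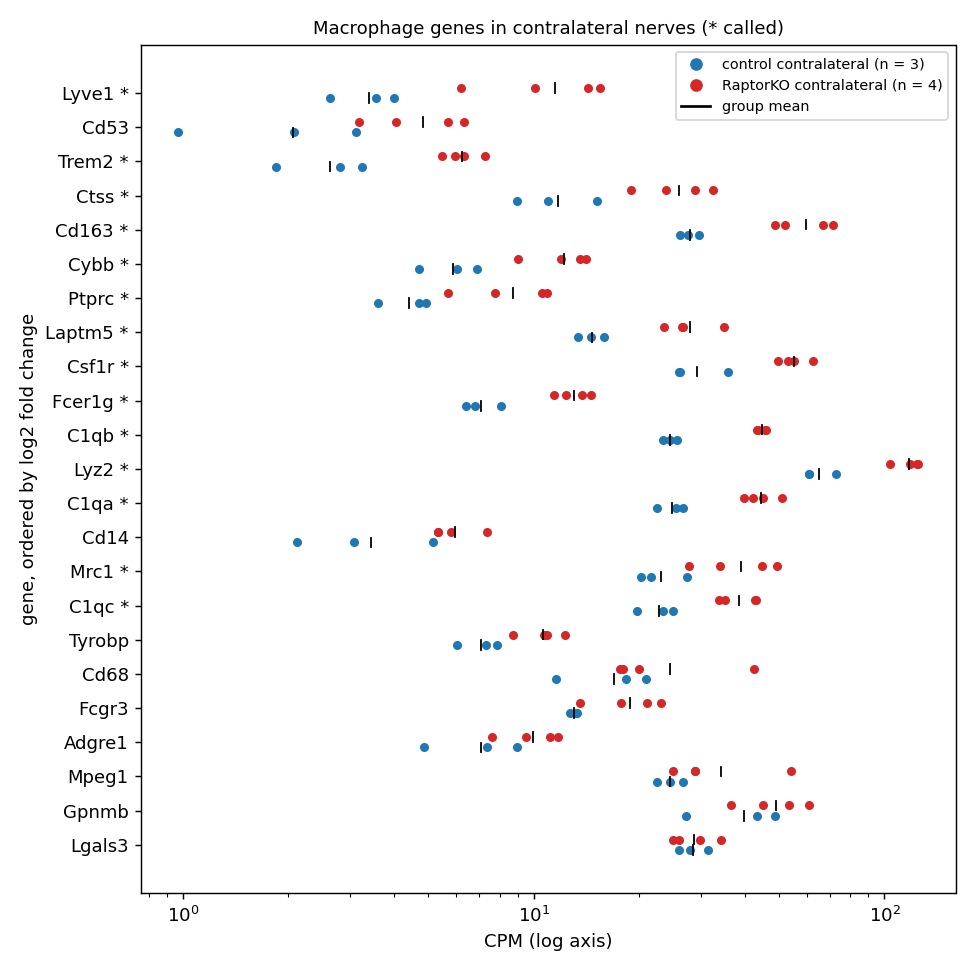
CPM on a log axis of the 23 tested genes in contralateral nerves, ordered by fold change, with 1 point per library for controls (blue, n = 3) and RaptorKOs (red, n = 4), the group mean as a black tick, and an asterisk for called genes. The 14 called genes show red points above all blue points, while Lgals3 and Gpnmb overlap and the single high red points of Cd68 and Mpeg1 are both RaptorKO contralateral 4.

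Genes of other cells also differed between contralateral nerves. Of 9 mast cell genes 5 were tested and 2 were higher, with summed levels of 14.1 to 61.2 CPM in controls and 84.1 to 147 CPM in RaptorKOs. Of 5 fibroblast genes 3 were higher, with sums of 5676 to 6458 against 8252 to 10705 CPM. Of 3 erythrocyte genes 2 were tested and 1 was higher, with sums of 43.6 to 81.3 against 84.4 to 147 CPM. The 6 dendritic cell genes, of which 1 was tested and 0 called, summed to 17.6 to 20.2 against 20.7 to 28.3 CPM. Of 6 SC genes 3 were lower and 0 higher, with sums of 59776 to 66265 against 51692 to 63141 CPM. The 4 skeletal muscle genes summed to at most 1.37 CPM in contralateral nerves. The 9 neutrophil genes summed to 2.05 to 2.53 against 1.32 to 4.07 CPM, the 9 T and NK cell genes to 1.27 to 2.62 against 1.53 to 5.59 CPM, and the 4 B cell genes to 0.814 to 1.54 against 1.27 to 1.78 CPM, none of them with a tested gene. Endothelial and adipocyte sums overlapped too, with 0 genes called. The part of these other cells in the difference of the phagocyte genes was not tested.

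The second comparison, injured against contralateral nerves within each genotype, measured how the same genes moved at 5 dpc. In controls 31 of the 32 tested members rose and 0 fell, against 32.4% of all genes called higher and 32.9% lower. In RaptorKOs 29 of 31 rose and 0 fell, against 30.5% and 28.5%. Scaling by total counts alone shifted the median log2 fold change of all genes by 0.201 in controls and 0.158 in RaptorKOs, and then 41.2% and 25.6% of genes were called higher and lower in controls and 37.6% and 22.7% in RaptorKOs. Of the members, 13 in controls and 8 in RaptorKOs passed the count minimum only through the injured libraries. Of the 19 that passed in contralateral controls alone all 19 rose, and of the 23 that passed in contralateral RaptorKOs alone 21 rose. The median log2 fold change of the tested members was 4.02 in controls and 3.38 in RaptorKOs. Together the 34 genes made up 0.943 to 1.04% of the counts of injured controls. Markers of other cells moved with the crush too. In both genotypes 1 of 9 neutrophil genes was tested, Retnlg, and it was called higher. Of 9 T and NK cell genes 1 was tested, Cd4, and it was higher too. Of 3 tested dendritic cell genes Flt3 and Cd209a were higher and Zbtb46 was lower in both genotypes. Of 6 SC genes 5 in controls and 4 in RaptorKOs were lower, and 0 were higher. The summed SC genes went from 59776 to 66265 CPM in contralateral to 3435 to 4105 CPM in injured controls, and the 9 T and NK cell genes from 1.27 to 2.62 CPM to 8.5 to 25.6 CPM. The part of these cells in the rise of the 34 genes was not tested.

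The largest rises in controls were those of Lgals3, Trem2, and Ctss. Lgals3 had 1773, 1968, and 2013 CPM in injured controls and 1729, 2208, and 1652 CPM in injured RaptorKOs, which was 65.4-fold above contralateral controls (log2 fold change 6.03, SE 0.13, edgeR adjusted p = 4.31e-11) and 63.7-fold above contralateral RaptorKOs. SCs and fibroblasts can express Lgals3 as well. Trem2 had 101, 139, and 117 CPM in injured controls and 127, 83.5, and 105 CPM in injured RaptorKOs, a log2 fold change of 5.43 (SE 0.19, edgeR adjusted p = 3.43e-10) in controls and 4.04 (SE 0.17) in RaptorKOs. Ctss had 420.2, 493, and 576 CPM in injured controls and 449, 232, and 479 CPM in injured RaptorKOs, a log2 fold change of 5.36 (SE 0.20, edgeR adjusted p = 6.13e-10) and 3.87 (SE 0.26). Every injured library lay far above every contralateral library in these 3 genes.

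Among the identity genes all 7 rose in both genotypes. Cd68 reached 400.4, 327, and 247 CPM in injured controls and 416, 185, and 426 CPM in injured RaptorKOs, and was 18.5-fold and 13.9-fold above the contralateral nerves. Adgre1 reached 99.8, 81.1, and 72.7 CPM and 106, 39.9, and 127 CPM, which was 11.5-fold and 8.87-fold. Csf1r rose less, to 284, 240.4, and 151 CPM and 315, 144, and 319 CPM, which was 7.41-fold and 4.61-fold. Ptprc reached 64.7, 56.3, and 62.0 CPM and 68.6, 42.5, and 83.3 CPM, which was 13.3-fold and 7.31-fold. In each of these 4 genes the injured genotypes overlapped and RaptorKO injured 2 was the lowest of the 6 injured libraries. Per length, Lyz2 (1491 ± 142 CPM per kb, SD, n = 3) and Lgals3 (1032 ± 68.8 CPM per kb) led in injured controls. C1qb (402 ± 61.0) and C1qa (372 ± 48.4) came next in CPM per kb, with overlapping ranges, so Lgals3 had passed the C1q genes.

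Cd163 and Lyve1 had the smallest log2 fold changes of the tested members in both genotypes. Cd163 had 81.2, 45.1, and 24.9 CPM in injured controls, and 94.7, 47.9, and 115 CPM in injured RaptorKOs. The lowest of these, control injured 3, lay below all contralateral controls. Its log2 fold change was 0.80 (SE 0.30, edgeR adjusted p = 0.0349) in controls and 0.50 (SE 0.25, edgeR adjusted p = 0.114) in RaptorKOs, where it was called with the replicate number as a block (edgeR adjusted p = 0.0267) and without RaptorKO injured 2 (edgeR adjusted p = 0.00307). The call in controls was lost without control injured 1 or any one contralateral control (edgeR adjusted p up to 0.220). Lyve1 had 13.4, 6.07, and 3.03 CPM in injured controls and 15.7, 9.47, and 25.4 CPM in injured RaptorKOs, with log2 fold changes of 1.09 (SE 0.46, edgeR adjusted p = 0.0521) and 0.51 (SE 0.35, edgeR adjusted p = 0.239). Mrc1 and Folr2 rose in both genotypes. Ly6c2, a marker of inflammatory monocytes, stayed under the count minimum, at 1.49 to 2.93 CPM in injured and 2.03 to 3.60 CPM in contralateral controls. Its near copy Ly6c1 had 393 to 1710 counts per library and could share reads with it. Chil3, a chitinase-like protein of alternatively activated macrophages, had 42, 18, and 31 counts in the injured controls and 0 in each contralateral control. Against a floor of 3 counts over the contralateral controls it was at least 32.2-fold higher.

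The promoters of the members were read for the core of the motif bound by PU.1, the transcription factor encoded by Spi1. RefSeq windows of 300 bases (GRCm38.p6, 250 before the start of the gene and 50 after) were matched by symbol for 25 of the 34 members, in 31 windows. The letters GAGGAA were found on either strand in 19 of the 31 windows (61.3%) and in 28.3% of all 32851 windows. The longer GAGGAAGT, which contains GAGGAA, was found in 5 of the 31 (16.1%) and in 3.2% of all windows. It was present in windows of C1qc, Cd53, Ctss, and Ly6c2. Such a match is a run of letters and not a measured binding site. The 250 bases before the start are shown for the 4 genes called in the interaction test below, and for C1qc as a C1q gene called higher in contralateral RaptorKOs. C1qc is not typical of these, as it held the longer motif while C1qb held only the shorter one. Each stretch is given 5′ to 3′ on the strand of the gene, with GAGGAA or its reverse complement in capitals:
Ctss (chr3:95526536-95526785, plus strand): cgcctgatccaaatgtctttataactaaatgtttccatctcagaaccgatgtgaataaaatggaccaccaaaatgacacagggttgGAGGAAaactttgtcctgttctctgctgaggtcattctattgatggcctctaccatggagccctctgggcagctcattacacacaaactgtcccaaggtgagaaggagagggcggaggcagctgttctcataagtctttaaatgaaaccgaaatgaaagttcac
Trem2 (chr17:48346151-48346400, plus strand): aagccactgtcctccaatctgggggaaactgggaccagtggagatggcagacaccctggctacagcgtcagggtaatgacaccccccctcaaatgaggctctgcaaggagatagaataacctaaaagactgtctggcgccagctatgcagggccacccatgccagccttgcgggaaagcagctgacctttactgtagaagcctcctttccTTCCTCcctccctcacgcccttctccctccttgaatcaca
Lyz2 (chr10:117282273-117282522, minus strand): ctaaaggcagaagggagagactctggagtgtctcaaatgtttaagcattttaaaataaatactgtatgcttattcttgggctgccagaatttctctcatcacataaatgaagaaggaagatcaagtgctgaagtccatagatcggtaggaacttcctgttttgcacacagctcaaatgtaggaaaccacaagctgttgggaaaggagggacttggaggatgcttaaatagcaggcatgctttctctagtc
Cx3cr1 (chr9:120068297-120068546, minus strand): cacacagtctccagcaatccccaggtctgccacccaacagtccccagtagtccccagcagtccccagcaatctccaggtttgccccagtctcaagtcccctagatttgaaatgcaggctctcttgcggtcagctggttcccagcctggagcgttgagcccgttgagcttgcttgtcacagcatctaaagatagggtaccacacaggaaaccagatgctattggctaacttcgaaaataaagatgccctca
C1qc (chr4:136892915-136893164, minus strand): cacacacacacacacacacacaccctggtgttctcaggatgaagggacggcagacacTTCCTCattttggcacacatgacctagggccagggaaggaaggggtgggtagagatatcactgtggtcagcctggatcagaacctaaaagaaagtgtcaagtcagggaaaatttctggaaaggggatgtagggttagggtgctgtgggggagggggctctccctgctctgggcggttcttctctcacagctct
In Ctss a match begins 164 bases before the start, and the longer motif lies across the start itself and is therefore outside the stretch shown. In Trem2 the match begins 40 bases before the start, and in C1qc 193 bases before it. The windows of Lyz2 and Cx3cr1 do not hold these letters. All starts here are those of RefSeq. In Lyz2, Cx3cr1, and C1qc they lie inside the gene as drawn by GENCODE, and the stretch of Cx3cr1 lies wholly inside it.

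The third comparison asked whether injured nerves differed between genotypes. Of the 32 tested members 0 were higher in RaptorKOs and 1 was lower, against 4.09% of all 12040 genes called higher and 4.44% lower. In edgeR 4 had an unadjusted p below 0.05, and DESeq2 called 1 higher and 2 lower, against 5.58% and 5.38% of all genes. The median log2 fold change was 0.11, against 0.001 for all genes, and 22 members lay above 0 and 10 below. RaptorKO injured 2 was the lowest of the 6 injured libraries in 29 of the 34 members, and the highest in Lgals3. The sum of the 34 genes was 9626, 10031, and 9019 CPM in injured controls and 9945, 6566, and 9948 CPM in injured RaptorKOs. In this sum the other 2 RaptorKO libraries lay within the range of the controls. Without the abundant Lgals3, Gpnmb, and Lyz2, the sum was 4951, 4696, and 4013 CPM in injured controls. In injured RaptorKOs it was then 5344, 2856, and 5536 CPM. RaptorKO injured 1 and 3 thus lay above every control, and RaptorKO injured 2 below every control. Without RaptorKO injured 2 there were 4 higher members (Cd14, Cd163, Folr2, and Lyve1) and 1 lower one, against 4.09% and 4.34% of all genes in that fit. Without control injured 1 there were 2 higher members, Cd163 and Lyve1, against 2.56% of all genes. Beside this, 5 of 5 endothelial genes were higher in injured RaptorKOs (sums of 202 to 302 CPM in controls and 367 to 578 CPM in RaptorKOs), as were 5 of 6 tested mast cell genes (9.06 to 54.2 against 112 to 207 CPM) and 2 of 2 tested erythrocyte genes (2.31 to 14.4 against 25.3 to 44.4 CPM). Of the 5 fibroblast genes 2 were higher and of the 6 SC genes 2 were lower. The 9 neutrophil genes summed to 6.91 to 8.60 CPM in controls and 4.18 to 9.66 CPM in RaptorKOs, with 0 called. Of 3 tested dendritic cell genes 1 was higher (17.5 to 27.4 against 24.6 to 42.3 CPM), and the T and NK cell sums (8.5 to 25.6 against 7.74 to 14 CPM), B cell sums, and lymphatic sums (47.2 to 78.6 against 74.5 to 130.5 CPM) overlapped. The part of these other cells in the injured comparison was not tested.

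**Figure D2:**
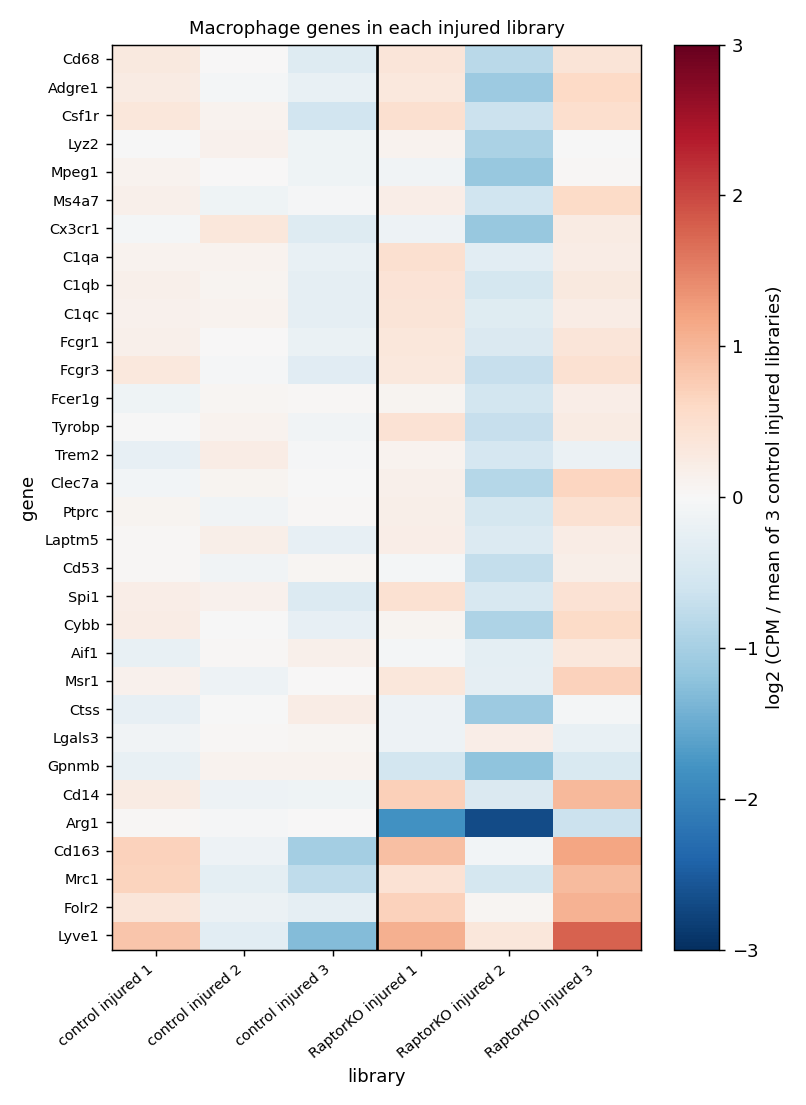
Each tested gene (rows) in each of the 6 injured libraries (columns) as the log2 ratio of its CPM to the mean of the 3 injured controls, from blue (lower) to red (higher). RaptorKO injured 2 is blue in almost every row except Lgals3 and the resident genes Folr2 and Lyve1, and Gpnmb and Arg1 are blue in all 3 RaptorKO libraries.

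Gpnmb (ENSMUSG00000029816, chromosome 6, 49036546 to 49070929) was the lower gene. It had 968, 1204, and 1202 CPM in injured controls and 765, 489.5, and 818 CPM in injured RaptorKOs, and the groups did not overlap. Its log2 fold change was -0.69 (SE 0.18, edgeR adjusted p = 0.0373). The call was lost without control injured 2, control injured 3, or RaptorKO injured 1 (edgeR adjusted p up to 0.132), and it held without RaptorKO injured 2. Arg1 (ENSMUSG00000019987, chromosome 10, 24915221 to 24927484), the arginase of alternatively activated macrophages, was the other tested member whose groups did not overlap, with 9.34, 8.88, and 9.19 CPM in injured controls and 2.60, 1.42, and 5.89 CPM in injured RaptorKOs. This separation in the lower direction was found in 2 of the 32 tested members, as well as in Chil3, and in 14.8% of all tested genes. The log2 fold change of Arg1 was -1.46 (SE 0.42), the most negative of the 32, but it was not called (edgeR adjusted p = 0.0528, and 0.00042 to 0.189 over 14 alternatives). Arg1 passed the count minimum only through the control libraries. Chil3, another gene of alternative activation, was under the minimum, with 42, 18, and 31 counts in controls and 13, 3, and 6 in RaptorKOs. With no count minimum 3 members were lower (Gpnmb, Arg1, and Chil3) and 3 higher (Cd163, Folr2, and Lyve1), against 3.56% and 3.69% of all genes.

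Genes that were higher in contralateral RaptorKOs were not called here. Lyz2 had 1935, 2162, and 1791 CPM in injured controls and 2107, 1012, and 1942 CPM in injured RaptorKOs (log2 fold change -0.20, interval -0.67 to 0.27). Csf1r and Ptprc had log2 fold changes of 0.22 (interval -0.38 to 0.83) and 0.10 (interval -0.32 to 0.53). The C1q genes lay between 0.13 and 0.18. Cd68 and Adgre1 had log2 fold changes of 0.10 (interval -0.48 to 0.67) and 0.12 (interval -0.55 to 0.79). The 4 resident genes had positive values and were not called, with 0.79 for Cd163 (interval -0.01 to 1.59), 0.43 for Mrc1 (interval -0.36 to 1.21), 0.67 for Folr2 (interval 0.15 to 1.18), and 1.18 for Lyve1 (interval 0.19 to 2.18). In all 4 the lowest injured library was control injured 3, which also had high Xist. The part of sex in these values was not tested.

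**Figure D3:**
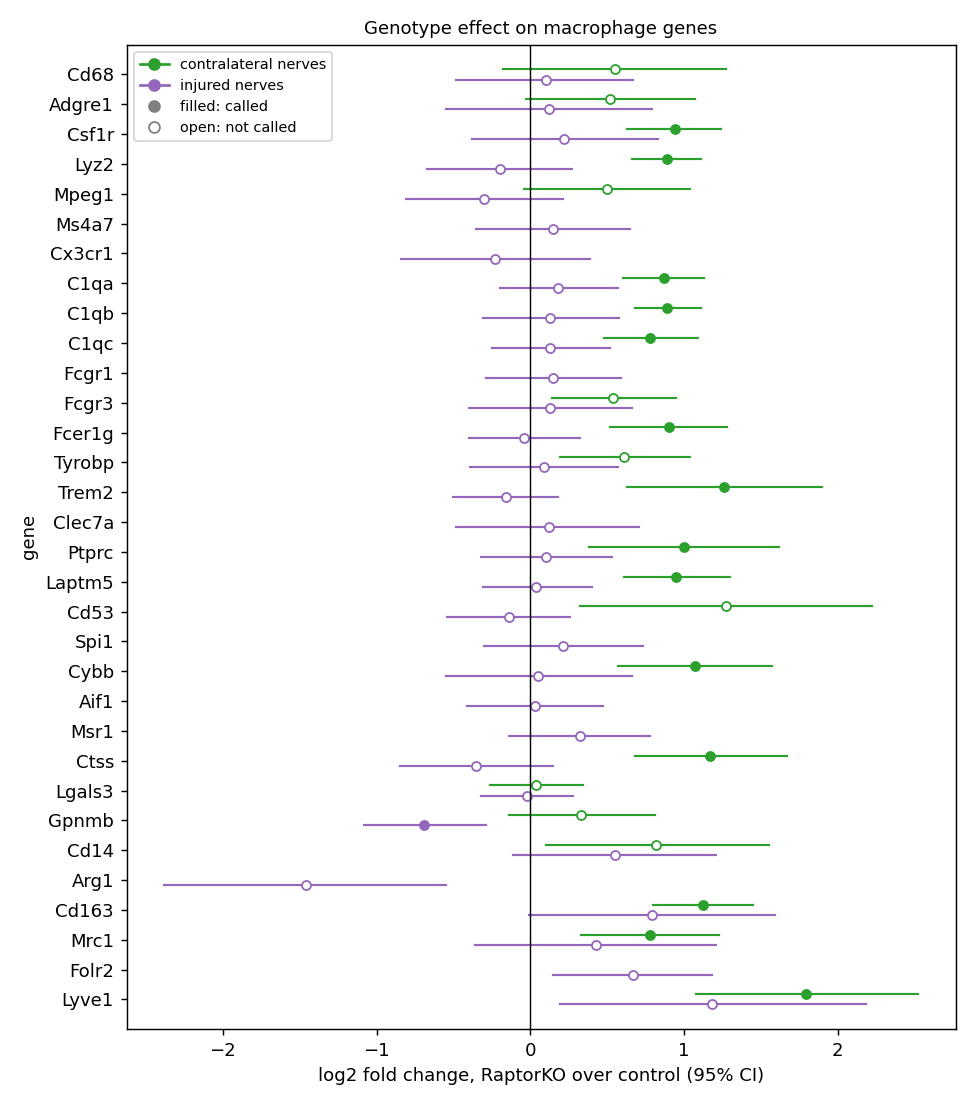
Log2 fold change of RaptorKO over control with its 95% confidence interval for the tested genes in contralateral (green) and injured nerves (purple), filled where called. The green points lie right of 0, from 0.04 for Lgals3 to 1.79 for Lyve1, while most purple points lie near 0, Gpnmb is the single filled one, and Arg1 is farthest left at -1.46.

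Whether the genotype effect differed between the 2 kinds of nerve was tested with 1 interaction term in a fit of all 13 libraries. It contains the contralateral libraries of the first comparison and is no independent evidence of it. Of 32 tested members 4 had a lower value, meaning a smaller rise after the crush in RaptorKOs than in controls, and 0 a higher one, against 1.41% and 1.07% of 12851 genes. The interaction values ran from -2.02 to -0.06 with a median of -0.66, against -0.01 for all genes, and 14 of the 32 had an unadjusted p below 0.05. The 4 genes were Trem2 (-1.41, SE 0.28, edgeR adjusted p = 0.0165), Ctss (-1.51, SE 0.36, edgeR adjusted p = 0.0415), Cx3cr1 (-2.02, SE 0.49, edgeR adjusted p = 0.0415), and Lyz2 (-1.08, SE 0.27, edgeR adjusted p = 0.0495). Cx3cr1 had 36.5, 48.4, and 29.0 CPM in injured controls and 34, 17.4, and 45.1 CPM in injured RaptorKOs, and rose 34.8-fold in controls and 8.72-fold in RaptorKOs. Its gene model on chromosome 9 (119901616 to 120069879) spans other genes on both strands. Lyz2 rose 29.3-fold and 14.1-fold, Trem2 43.0-fold and 16.5-fold, and Ctss 41.2-fold and 14.7-fold. In all 4 the injured genotypes overlapped, and in all 4 the contralateral genotypes did not. Of the 11 members under the count minimum in contralateral nerves, all but Ly6c2 and Chil3 entered the interaction test with the injured libraries. They also count in its range and median. Cx3cr1 is among them, with 8 to 14 counts in contralateral controls. With the replicate number as a block within each genotype, 8 members were lower, against 1.48% of all genes. Lgals3 had an interaction of -0.06 (interval -0.45 to 0.34). The number of called members fell to 1 or 2 without any one of 10 of the 13 libraries, the exceptions being RaptorKO contralateral 2, RaptorKO injured 2, and RaptorKO injured 3, and Trem2 lost its call only without control contralateral 3 among these 13 (edgeR adjusted p = 0.0506).

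**Figure D4:**
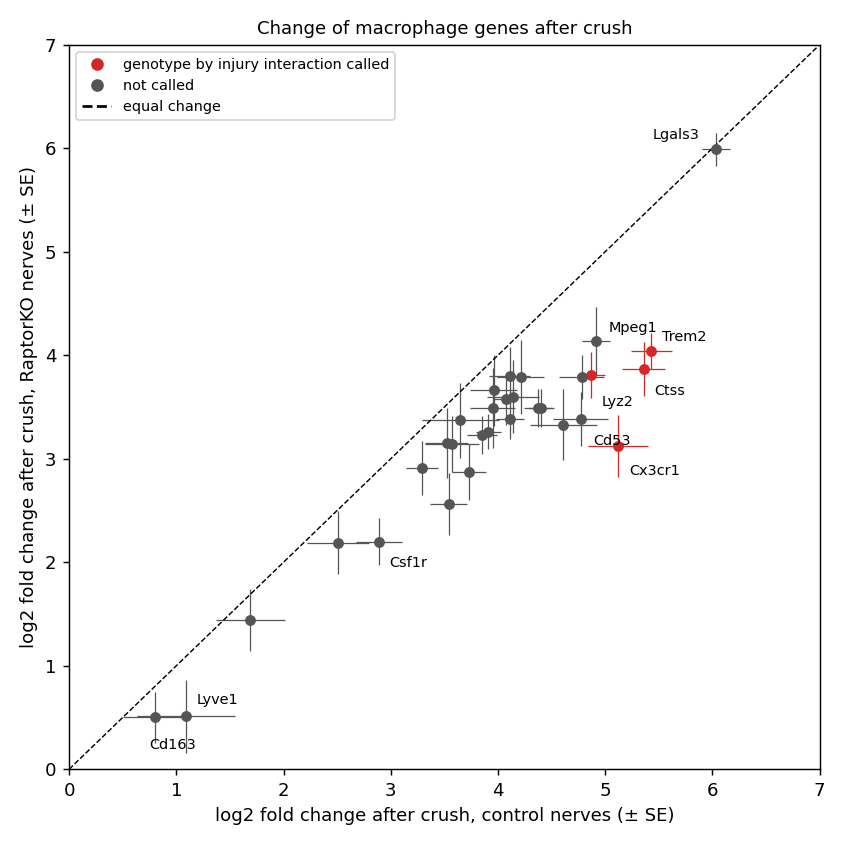
Log2 fold change after the crush in control (horizontal axis) and RaptorKO nerves (vertical axis), each with its SE, for the genes tested in both, with the genes called in the interaction in red and a dashed line of equal change. The point of Lgals3 lies close to the line, and the red points Trem2, Ctss, Lyz2, and Cx3cr1 lie between 3.12 and 4.04 on the vertical axis.

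**Figure D5:**
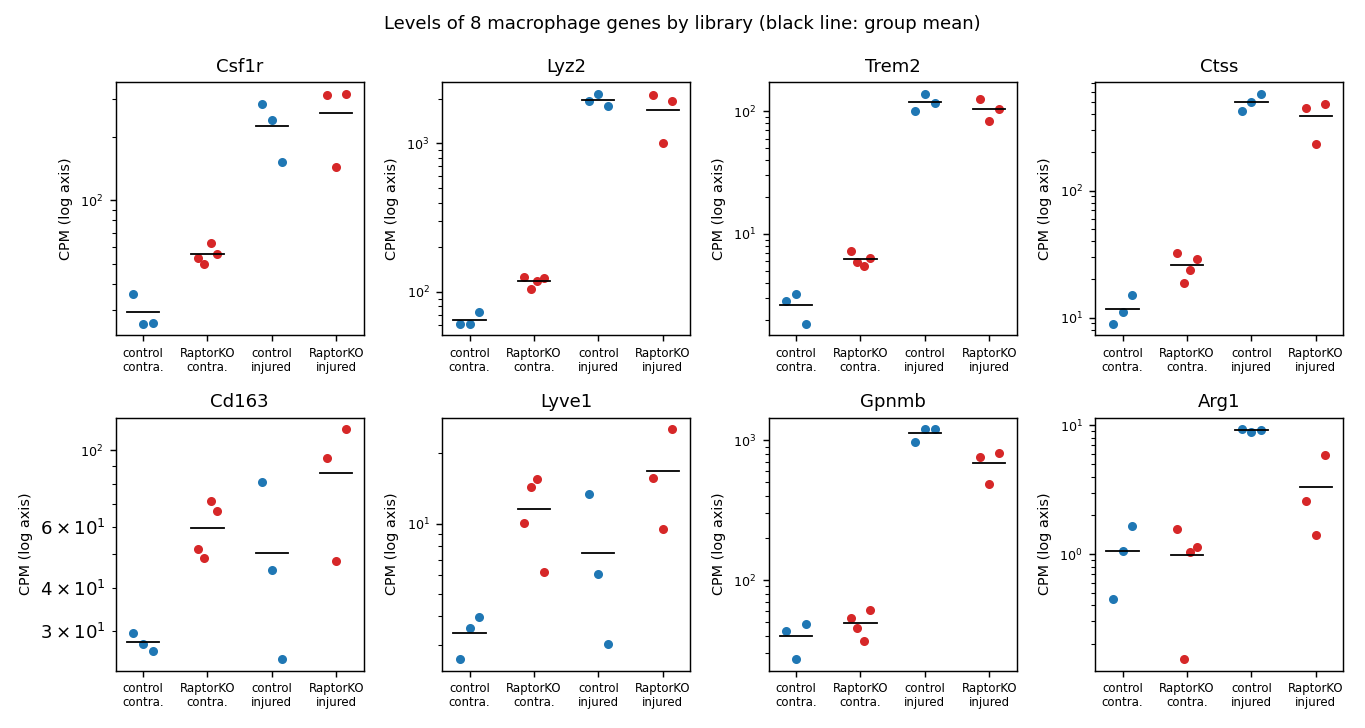
CPM on log axes of 8 genes in every library of the 4 groups (controls blue, RaptorKOs red, group mean as a black line). Csf1r, Lyz2, Trem2, Ctss, Cd163, and Lyve1 are separate between genotypes in contralateral nerves and overlap in injured nerves, while Gpnmb and Arg1 show the reverse.

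Further genes of macrophage biology were read from lists of 77 genes in 7 groups. In contralateral nerves 45 were tested, of which 4 were higher and 2 lower, against 4.49% and 5.68% of all genes, and their median log2 fold change was 0.25. Itgam, the integrin chain CD11b, had 1.27, 2.11, and 2.63 CPM in the controls, and the RaptorKOs had 8.24, 4.66, 6.61, and 5.97 CPM (log2 fold change 1.69, SE 0.34, edgeR adjusted p = 0.0112). Itgam, with 14 to 27 counts in controls, and Dock2, with 33 to 52, reached the count minimum only through the RaptorKOs. They were the 2 called higher of the 6 genes that did so. Of the 39 genes that reached it in controls alone, 2 were higher (Cd63 and Inpp5d), against 4.49% of all genes. Dock2 (1.0) and Inpp5d (0.81), which act in signaling below immune receptors, and the tetraspanin gene Cd63 (0.42) were higher as well, whereas the cholesterol exporter Abcg1 (-0.68) and the transcription factor gene Mitf (-0.54) were lower. By group, 1 of 4 tested adhesion genes (Itgam) and 2 of 6 genes of ITAM signaling (Dock2 and Inpp5d) were higher. Of 5 growth factor and chemoattractant genes, 5 activation genes, and 3 other resident genes 0 were called. Of 8 transcription factor genes 1 was lower, and of 14 genes of lipid-laden phagocytes 1 was higher and 1 lower. In injured nerves 63 were tested, with 0 higher and 3 lower, a share close to the 4.44% of all genes called lower. Spp1, which encodes osteopontin, had 645 to 699 CPM in controls and 350 to 497 CPM in RaptorKOs (log2 fold change -0.62, edgeR adjusted p = 0.0166). The cathepsin gene Ctsl (-0.50, edgeR adjusted p = 0.0280) and the purinergic receptor gene P2ry12 (-0.67, edgeR adjusted p = 0.0496) were lower as well. SCs also express Spp1, which had 1113 to 1261 CPM in contralateral controls, above its level in injured controls. After the crush 53 of 63 rose and 7 fell in controls, against 32.4% of all genes called higher and 32.9% lower. In RaptorKOs 53 of 66 rose and 6 fell, against 30.5% and 28.5%. Of the 63, 39 reached the count minimum in contralateral controls alone, and the others only with the injured libraries. In the interaction Btk was lower and Abcg1 higher among 66 tested, against 1.41% of all genes called lower and 1.07% higher.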

How the data were processed

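The authors trimmed reads with Trimmomatic and deposited expected counts per gene, estimated with RSEM 1.2.22 on GRCm38, for 13 libraries in 1 table. Of the nonzero values 24.93 to 27.95% per library were not whole, and the expected counts were rounded before testing. The library kit was stranded, but the strand setting of the counting was not given in the sources used here. Symbols, exon lengths, and positions came from GENCODE M21, which held 40634 of the 40787 gene identifiers, and 17160 genes had no count. All 13 value columns were used.

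The genotypes were compared within contralateral and within injured nerves, the crush within each genotype, and their interaction over all libraries, with the quasi-likelihood test of edgeR 4.0.16 (R 4.3.3) and TMM factors of 0.9265 to 1.08. Genes needed 50 counts in 2 libraries of the comparison. Calls needed an adjusted p below 0.05 over all tested genes and a fold above 1.2. Alternatives were the exact test of edgeR, DESeq2 1.42.0, the size factors of DESeq2, total counts, no count minimum, an adjusted p below 0.01, 1 fit over all libraries, a replicate block, and leaving out each library. Where 1 group would rest on few libraries its spread was taken from the shared fit. The scripts were tested on simulated data.

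The 34 members and all gene lists were chosen with earlier results of these data known. Values in every library are given for members called in a genotype comparison or in the interaction, for Cd68, Adgre1, Csf1r, and Ptprc, and for the 3 members with the largest rise in controls. Some further members (such as Chil3 and Folr2) are named after their values were seen. Other macrophage genes are named where a genotype comparison called them, and Btk after its value was seen. The labels do not say that equal replicate numbers mark 1 mouse, and p-values measure the spread between these samples only. At these totals a floor of 3 counts was used for a gene without counts in a group, and it covers counting error only.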

Additional observations from a re-analysis of the deposited data

Results flagged for a closer look

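Within the 4 contralateral RaptorKO libraries, 3 of the 34 members had 1 library far above the others, as the gap to its nearest neighbor divided by the range of the group, which was above Dixon's 95% critical value. The ratio was 0.904 for Cd68 and 0.866 for Mpeg1, both in RaptorKO contralateral 4, and 1.0 for Chil3 in RaptorKO contralateral 1, where 5 counts stood against 0 in the other 3. Chance gives about 1 such gap in 20 groups. The interaction test of edgeR called 4 members, with log2 values of -1.08 for Lyz2, -2.02 for Cx3cr1, -1.41 for Trem2, and -1.51 for Ctss. In each of them the contralateral level was higher in RaptorKOs and the injured ranges overlapped. Cx3cr1 was under the count minimum in contralateral nerves and entered this test with the injured libraries.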

How the results depend on the processing

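Over 68 values of single genes, counts of calls not included, 904 of 1013 alternative values kept direction and call, 66 lost a call, 29 gained one, and 14 changed sign. Calls held in every alternative for 8 of 14 members in contralateral nerves, 30 of 31 after the crush in controls, 29 of 29 in RaptorKOs, 0 of 1 in injured nerves, and 0 of 4 in the interaction. In injured nerves the number higher, 0 as reported, was 1 with DESeq2, 3 with no count minimum, and 0 to 4 with 1 library left out. The number lower, 1 as reported, was 2 with the exact test, 2 with DESeq2, 3 with no count minimum, 0 at an adjusted p below 0.01, 0 in 1 fit over all 13 libraries, and 0 to 2 with 1 library left out. The number lower in the interaction, 4 as reported, was 8 with DESeq2, 9 with no count minimum, 0 at an adjusted p below 0.01, and 1 to 5 with 1 library left out. The cause was not tested.

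Same-numbered contralateral and injured libraries had correlated deviations of 0.068, 0.13, and 0.305 in controls and -0.024, 0.211, and 0.168 in RaptorKOs, which is not above 0.1 in every pair. Titles give both nerves the same number, no source used here states that it marks 1 mouse, and the 2 control libraries numbered 3 alone had high Xist. With the replicate block the counts were 14 higher in contralateral nerves, and 0 higher and 1 lower in injured nerves (Arg1 and not Gpnmb). They were 30 higher after the crush in RaptorKOs (Cd163 added) and 8 lower in the interaction. Adgre1 in injured nerves then had a log2 fold change of -0.01. Within contralateral and within injured nerves the block joined control and RaptorKO libraries of equal number, which come from different mice. These genotype counts are therefore no comparison within 1 mouse.

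Among these 68 values, leaving out 1 library changed the sign of 7, all uncalled as reported. The ranges were -0.06 to 0.12 for Lgals3 in contralateral nerves, and in injured nerves -0.09 to 0.39 for Cd68, -0.2 to 0.48 for Adgre1, -0.12 to 0.33 for Ptprc, -0.39 to 0.06 for Lyz2, and -0.55 to 0.07 for Cx3cr1. For the interaction of Lgals3 it was -0.2 to 0.03. In contralateral nerves 11 members were under the count minimum and could not be called.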
